A study of Mus musculus with 6 samples.

Results

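The enzymes that make nucleotides and the one-carbon units they need were followed in mouse BCR-ABL positive cell lines with and without targeting of Cdk6. The genes were taken by symbol from a fixed list of 35, all 35 of which had a row among the 25965 rows of the count table, and all 35 passed the filter on low counts. They were read as 5 steps: 7 genes of deoxynucleotide (dNTP) supply and thymidylate, 6 of pyrimidine synthesis, 12 of purine synthesis de novo, 5 of purine salvage and the nucleotide kinases, and 5 of folate one-carbon metabolism. BCR-ABL is the fusion kinase of the Philadelphia chromosome, and all 6 lines carry it. The lines labelled Cdk6 knock out (KO1, KO2 and KO3) had been electroporated with pSpCas9(BB)-2A-GFP(px458)-hCDK6del, a plasmid that per the labels expresses guide RNAs against CDK6, and those labelled Cdk6 wild type (WT1, WT2 and WT3) with the control plasmid pSpCas9(BB)-2A-GFP(px458). Per the labels' protocols GFP positive cells were sorted and plated as single cells, so that a line is 1 clone, and knockout was checked by Western blot. The labels do not say whether the h in the plasmid name refers to the human gene. No source used here says that the 3 lines of a group came from separate parental cultures, and p-values below measure the spread between these libraries.

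Cells about to copy their DNA need a supply of dNTPs. Purine rings are built step by step on a ribose phosphate, pyrimidine rings are closed first and then joined to it, and ribonucleotide reductase turns the diphosphates into their deoxy forms. Folate carries one-carbon units from serine to the purine ring and to thymidylate. Many of these genes are textbook targets of E2F or MYC and are induced as cells enter S phase.

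The library totals lay between 17859519 counts (KO1) and 24108563 (WT1), and 3 counts equalled 0.124 to 0.168 CPM (counts scaled to a library total of 1000000). Where 3 values are given for WT or KO they stand in the order of replicates 1, 2 and 3. Every enzyme lay far above that floor, Dhodh in WT1 being the lowest value at 22.65 CPM. The targeted gene did not separate the groups: Cdk6 lay at 39.4, 45.0 and 55.8 CPM in WT and at 42.1, 72.6 and 40.4 CPM in KO, and KO and WT below are the labels of the libraries. Library KO2 stood apart, with correlations of 0.845 to 0.921 to the others across genes, where WT1 and WT3 correlated at 0.99. Of the markers of B cell progenitors, the transcription factor Pax5 lay at 166 to 184 CPM in WT and 178 to 200 CPM in KO, and Cd79a, a chain of the B cell receptor, at 709 to 718 CPM in WT and 517 to 889 CPM in KO. Igll1, of the pre-B cell receptor, was lowest in KO2 at 630 CPM, against 1132.4 to 1180.7 CPM in WT and 1261 and 1151 CPM in KO1 and KO3. The 9 markers of this list did not move together. Their log2 fold changes were negative for 4 and positive for 5, where 47.2% of tested genes were negative. Some were highest in KO2 or KO3 and others lowest there. Of the other cell types, 8 myeloid markers summed to between 28.2 and 43.9 CPM in WT and 16.0 and 43.4 CPM in KO, with Elane, Cebpa, Ly6g and S100a8 at 0 in every library and Lyz2 lower in KO (12.4 to 15.3 CPM, against 26.8 to 38.7 CPM in WT, DESeq2 adjusted p = 1.15e-05). Itgam made up most of the sum in KO1, at 29.5 CPM against 1.15 to 4.73 CPM in WT (log2 fold change 1.85 ± 1.44). The 6 markers of T and NK cells summed to at most 4.461 CPM (KO2, with Zap70 at 4.46 CPM), and Cd3e was at 0. Those of erythroid cells and megakaryocytes summed to at most 9.407 CPM (KO1, with Gata1 at 6.66 CPM). Those of stroma and endothelium summed to between 78.44 and 154.0 CPM. Nearly all of the latter was Pecam1, with Col1a2, Pdgfra and Cdh5 at 0. In such bulk libraries fewer cells of a type and less RNA per cell cannot be told apart, and the part of these markers in the results was not tested.

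Promoter sequence was read for the enzymes first, because most of them lay lower in KO. RefSeq windows on GRCm38.p6, from 250 bases before the start of transcription to 50 after it, were found for 33 of the 35 genes. The E-box CACGTG, the core that MYC and MAX bind, stood in windows of 6 of the 33 (Tyms, Dtymk, Paics, Atic, Impdh2 and Nme1), against 12.4% of the 7775 tested genes with a window and 7.15% of all 32851 windows. CCAAT, the core of the NF-Y site, stood in 13 of the 33, against 44.2% of the tested genes. Of 2 E2F-type cores, TTTCCCGC stood in 2 (Prps2 and Ppat, against 2.59% of the tested genes) and TTTGGCGC in 0 (against 1.25%). Both strands were searched, and a match is a description of the letters in the window only.

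Stretches before the start are shown for Rrm1, Gart and Tyms, genes of 3 different functions whose KO libraries all lay below the WT libraries, with the matches in capitals. They come from RefSeq, are written 5′ to 3′ on the strand of the gene, and hold no annotated exon of the GENCODE set. Prps2 met the same criteria but had no match before its start and is not printed. Rrm1 has CCAAT beginning 91 and again 45 bases before its start, Gart has it 33 bases before, and Tyms has no CCAAT but an E-box 61 bases before. The stretches of Rrm1 and Gart end at the start, and that of Tyms ends 20 bases short of it.
Rrm1 (chr7:102441445-102441694, plus strand): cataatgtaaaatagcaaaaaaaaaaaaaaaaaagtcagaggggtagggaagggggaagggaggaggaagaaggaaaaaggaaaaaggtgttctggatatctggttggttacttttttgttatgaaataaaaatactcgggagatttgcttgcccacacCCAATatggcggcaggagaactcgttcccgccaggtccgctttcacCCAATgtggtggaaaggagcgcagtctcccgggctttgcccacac
Gart (chr16:91646973-91647222, minus strand): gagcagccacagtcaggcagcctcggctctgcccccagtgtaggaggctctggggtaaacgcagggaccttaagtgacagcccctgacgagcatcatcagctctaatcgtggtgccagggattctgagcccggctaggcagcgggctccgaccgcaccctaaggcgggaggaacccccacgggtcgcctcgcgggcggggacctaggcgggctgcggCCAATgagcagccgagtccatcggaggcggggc
Tyms (chr5:30073646-30073875, minus strand): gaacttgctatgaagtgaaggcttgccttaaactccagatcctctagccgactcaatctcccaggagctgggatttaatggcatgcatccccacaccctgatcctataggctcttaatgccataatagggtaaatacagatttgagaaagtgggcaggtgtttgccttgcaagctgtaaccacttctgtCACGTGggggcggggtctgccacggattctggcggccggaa
The 3 stretches differ in base composition, with a GC content of 46.0% for Rrm1, 68.0% for Gart and 51.3% for Tyms.

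The levels of the enzymes relative to each other were set by dividing CPM by kb of annotated exon. Shmt2, the mitochondrial serine hydroxymethyltransferase, was highest at 265 CPM per kb as a mean of all 6 libraries, followed by Rrm2, the small subunit of ribonucleotide reductase, at 207, and by Impdh1 at 186. Dhodh, the mitochondrial enzyme that makes orotate, was lowest at 4.63 CPM per kb. Rrm2 lay above Rrm1, the large subunit, in every library, by 2.02 to 2.46 times on this scale, although Rrm1 had more counts. That ratio depends on the lengths used, 11012 bases for Rrm1 and 2771 for Rrm2. Their longest coding transcripts have 3997 and 2193 bases, so the order of the 2 is not settled. Exon length was the sum of all annotated exons of a gene. It equals the longest coding transcript for some genes (Hprt, 1289 bases) and is far longer for others, such as Rrm1. Levels of different genes, and the ratios of paralogs below, depend on it.

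**Figure D1:**
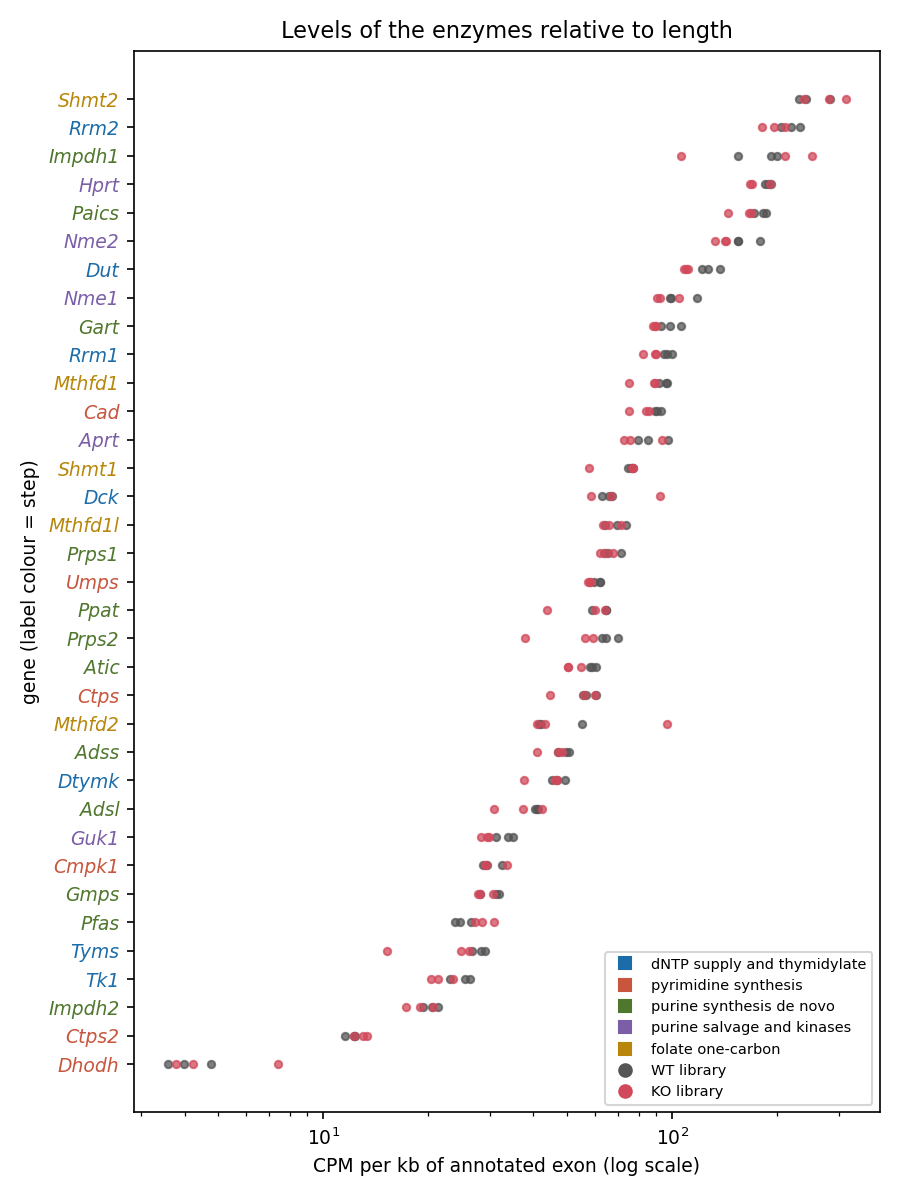
CPM per kb of annotated exon (log axis) for each of the 35 genes, 1 point per library, WT in grey and KO in red, genes ordered by mean. Shmt2 is at the top at 265 CPM per kb and Dhodh at the bottom at 4.63, and for most genes the libraries lie close together.

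Several steps are run by a pair of paralogs, and their balance is given per library or as a range. Impdh1 and Impdh2 encode the enzyme that commits IMP to GMP, and Impdh1 lay 6.17 to 13.4 times above Impdh2 per kb. Impdh2 shares 1545 bases at 99.7% identity with the pseudogene Impdh2-ps, which has no row of its own, so how reads of that stretch were counted bears on its level and is not given. Ctps lay 3.33 to 4.91 times above Ctps2 (both make CTP from UTP), with the lowest ratio in KO2. Shmt2 lay 3.03 to 4.89 times above the cytosolic Shmt1. Prps2 and Prps1, which make the activated ribose phosphate, were near each other in WT, at ratios of 1.07, 0.883 and 1.01, and the ratio was 0.909 and 0.877 in KO1 and KO3 and 0.585 in KO2.

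The comparison of the lines asked which of the enzymes differed between KO and WT. Most of them lay slightly lower in KO: the log2 fold change (KO over WT) was below 0 in 27 of 35, against 47.2% of the 10896 tested genes. Its median was -0.14 over the 35 and 0.01 over all genes. Each KO library was below each WT library in 12 of the 35 (34.3%), where this held for 8.68% of tested genes, and above in 1 (Pfas), where it held for 10.6%. With CPM further scaled by TMM (a scaling that sets most genes equal between libraries) the counts were 13 and 0, against 11.0% and 8.51%. By edgeR's quasi-likelihood test none of the 35 passed an adjusted p of 0.05 and neither did any gene in the table (percent called 0.0), the adjusted p of the 35 running from 0.479 for Dut to 0.992 for Cmpk1. At an unadjusted edgeR p under 0.05 there were 9 lower (5.1% of all tested genes were) and 1 higher (4.35% were), or 9.45% of all genes in either direction. DESeq2 called 0 of the 35, where it called 1.94% of the 11212 genes to which it gave an adjusted p (1.24% lower and 0.705% higher). The edgeR count of 9 was 3 to 6 without any 1 of WT1, WT2, WT3, KO1 or KO3, it was 15 without KO2, and it was 4 with scaling by library totals alone. The count of lower genes in the whole table, 556 over all libraries, moved as well, to between 221 and 616, to 1073 and to 397.

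**Figure D2:**
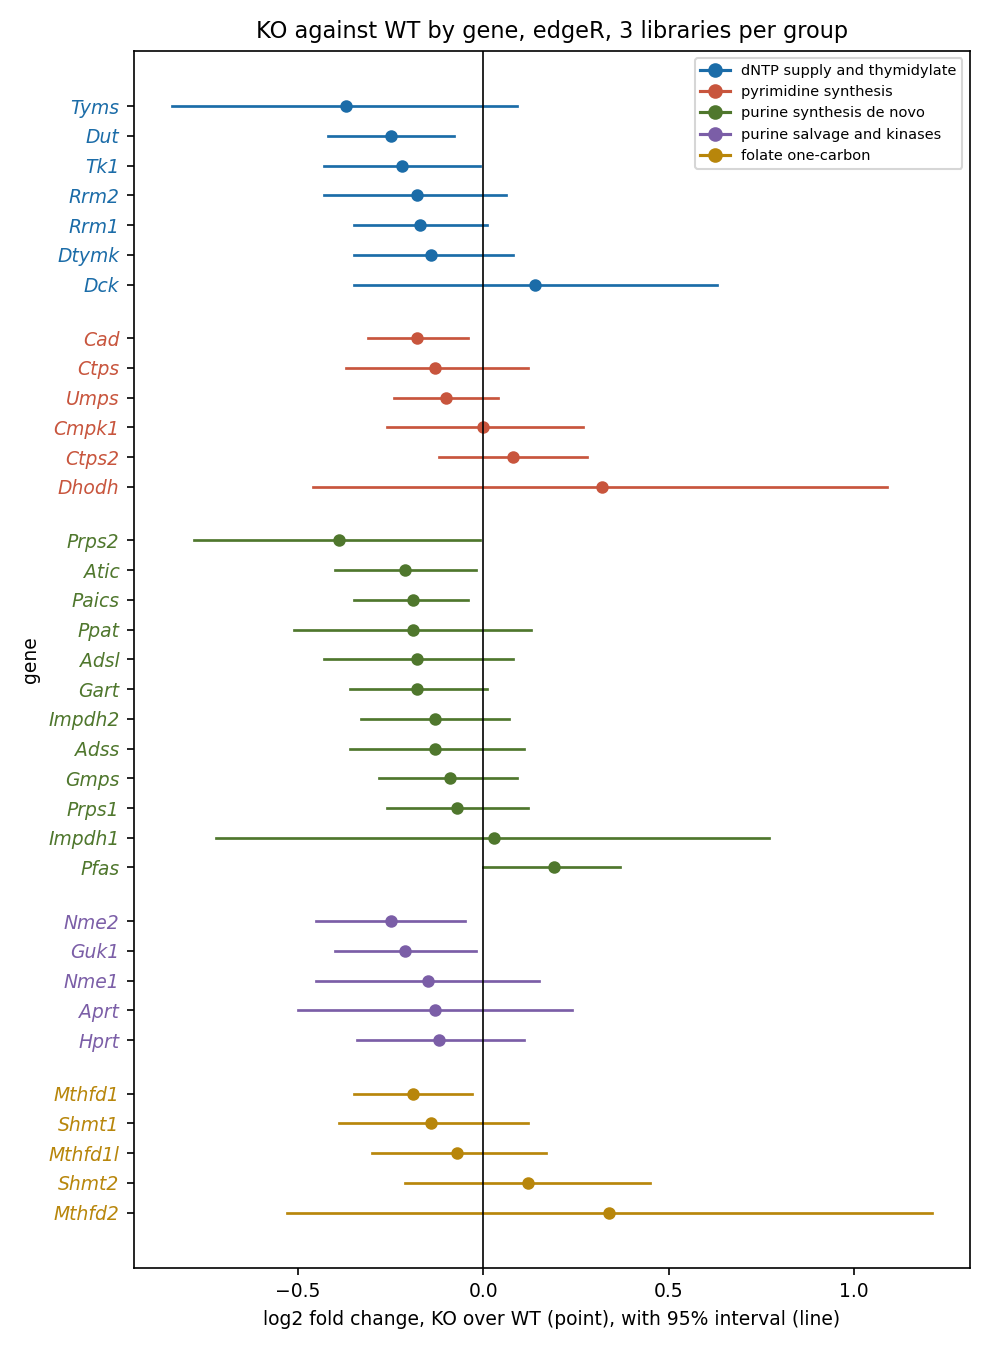
Log2 fold change of KO over WT for each gene (point) with its 95% interval (line), from edgeR with 3 libraries per group, coloured by step. Of the 35 points 27 lie left of 0, and the intervals of Mthfd2, Dhodh, Impdh1 and Tyms are among the widest.

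Of the genes for dNTP supply, the log2 fold change was below 0 in 6 of 7 (median -0.18), and 0 passed edgeR or DESeq2. Their summed CPM did not overlap between the groups: it came to 2590.5, 2698.1 and 2674.3 in WT, against 2401.2, 2475.2 and 2327.7 in KO. The KO mean of 2401.4 ± 73.7 (SD, n = 3) differed from the WT mean of 2654.3 ± 56.5 by -9.53%. Rrm1 and Rrm2 made up most of this sum, with WT means of 1066.8 and 607.6 CPM.

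Dut, the dUTPase that keeps uracil out of DNA, had the smallest edgeR p of all 35. By DESeq2 Cad came first (DESeq2 adjusted p = 0.0521, against 0.064 for Dut). It lay at 305.0, 330.0 and 293.5 CPM in WT and at 267.6, 259.7 and 263.6 CPM in KO. The groups did not overlap, and the KO libraries were close to each other (log2 fold change -0.25 ± 0.07 SE, edgeR unadjusted p = 0.0115 and adjusted p = 0.479). Rrm1 lay at 1064.1, 1040.9 and 1095.3 CPM in WT and at 985.3, 985.8 and 908.8 CPM in KO. Again each KO library was below each WT library, by a small margin (-0.17 ± 0.07, edgeR adjusted p = 0.532). Its partner Rrm2 overlapped, since KO2 at 582.9 CPM lay above WT1 at 569.3 CPM, and KO1 and KO3 were at 500.1 and 541.9 CPM (-0.18 ± 0.10).

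Tyms, which methylates dUMP to thymidylate with a folate carbon, lay at 172.4, 161.9 and 177.4 CPM in WT and at 151.2, 92.64 and 159.6 CPM in KO. All KO libraries were lower, but the size of the fold change rested on KO2: it was -0.37 ± 0.19 over all libraries and -0.18 without KO2. Tk1, the thymidine kinase of S phase, lay at 119.5, 137.1 and 131.9 CPM in WT and at 122.3, 105.7 and 110.8 CPM in KO. Here WT1 and KO1 overlapped (-0.22 ± 0.08, edgeR unadjusted p = 0.0416, adjusted p = 0.524), and with TMM scaling the groups did not. Dtymk, the kinase after Tyms and Tk1, was the least abundant of the step in CPM. It lay at 122.6, 129.6 and 118.7 CPM in WT and at 122.8, 99.03 and 121.2 CPM in KO, so that only KO2 was below the WT range (-0.14 ± 0.09). Stretches of Tyms recur at 95% identity or more in 18 other genes, and 419 bases of Rrm2 in the pseudogene Gm48455, so these 2 counts carry that uncertainty.

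Dck, the deoxycytidine kinase of salvage, was the 1 member of the step with a positive value. Its counts came to 349.4 CPM in KO2 and to 221.8 to 253.5 CPM elsewhere. The log2 fold change was 0.14 ± 0.20 and was -0.1 without KO2.

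Of the pyrimidine genes 3 of 6 had negative log2 fold changes, with a median of -0.05, and 0 passed edgeR or DESeq2. Leaving out 1 library moved this median to between -0.09 (without KO2) and -0.01 (without KO3). Cad, which carries out the opening reactions of the ring, lay at 737.8, 729.7 and 759.5 CPM in WT and at 686.8, 614.1 and 701.9 CPM in KO. The groups did not overlap and KO2 was lowest (-0.18 ± 0.05, edgeR adjusted p = 0.492, DESeq2 adjusted p = 0.0521). Umps, which closes the pathway by making UMP, had the narrowest range of all 35 (highest over lowest library 1.08). It lay at 207.8, 216.4 and 215.9 CPM in WT and at 202.9, 200 and 202.9 CPM in KO. These groups did not overlap either, although the log2 fold change was only -0.10 ± 0.06 (95% interval -0.24 to 0.04). The antisense gene Gm15829 covers 6.11% of the exon bases of Umps, and reads there cannot be told apart without strand.

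Dhodh, the step between Cad and Umps, showed the reverse in KO2. It lay at 22.65, 30.17 and 25.24 CPM in WT and at 23.96, 46.94 and 26.74 CPM in KO, so KO2 was highest and KO1 and KO3 lay within the WT range (0.32 ± 0.31, and -0.08 without KO2). The CTP synthases Ctps and Ctps2 had log2 fold changes of -0.13 ± 0.10 and 0.08 ± 0.08, and Cmpk1, the UMP and CMP kinase, of 0.00 ± 0.11. Without KO2 they were -0.03, 0.03 and -0.1. Cmpk1 has 592 bases at 96.5% identity to the pseudogene Gm5867, which has its own row.

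Among the genes of purine synthesis de novo 10 of 12 were on the negative side (median log2 fold change -0.15), and 0 passed edgeR or DESeq2. Their summed CPM did overlap, since KO1 at 3800.3 lay above WT1 at 3788.2 and KO2 was lowest at 3058.8. Without KO2 the median was -0.09.

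The pathway starts with the ribose phosphate made by Prps1 and Prps2. Prps2 had the most negative value of all 35 genes, at -0.39 ± 0.16 (edgeR unadjusted p = 0.0471, adjusted p = 0.529). It lay at 269.9, 244.3 and 249.7 CPM in WT and at 218.0, 146.4 and 229.7 CPM in KO, all KO libraries being lower and KO2 by far the lowest. Without KO2 the log2 fold change was -0.23. Prps1 overlapped between the groups, at 127.0 to 142.3 CPM in WT and 123.4 to 134.8 CPM in KO.

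Gart, Paics and Atic, multifunctional enzymes of the pathway, did not overlap between the groups. Atic, which adds the last folate carbon and closes IMP, lay at 465.2, 481.9 and 468.7 CPM in WT and at 400.0, 436.3 and 402.4 CPM in KO. KO1 and KO3 were the lowest here, and KO2 lay between them and WT (-0.21 ± 0.08, edgeR unadjusted p = 0.0358, adjusted p = 0.512). Gart lay at 477.4, 544.0 and 507.2 CPM in WT and at 462.1, 458.2 and 452.7 CPM in KO (-0.18 ± 0.07). The KO libraries were close to each other, while WT2 was well above WT1. The antisense gene Gm15964 covers 19.7% of the exon bases of Gart, and without a stated strand setting its reads cannot be told apart.

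Paics lay at 570.2, 537.2 and 580.7 CPM in WT and at 520.2, 453.8 and 527.2 CPM in KO (-0.19 ± 0.06, edgeR unadjusted p = 0.0224, adjusted p = 0.495). Ppat, which makes the committed step, is its neighbour on chromosome 5 on the other strand, and in RefSeq the genes overlap head to head by 277 bases (start of Paics at 76951302 and of Ppat at 76951578). In GENCODE their exons share 272 bases, whose reads cannot be told apart without strand. Ppat lay at 285.2, 261.0 and 284.7 CPM in WT and at 265.8, 193.5 and 283.5 CPM in KO. KO2 was the lowest library of both genes, and KO1 and KO3 lay within the WT range for Ppat but not for Paics (-0.19 ± 0.13, and -0.06 without KO2).

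Pfas, an amidotransferase of the middle of the pathway, had a positive value. It lay at 189.6, 209.9 and 194.8 CPM in WT and at 216.4, 226.0 and 244.4 CPM in KO (0.19 ± 0.08, edgeR unadjusted p = 0.0491, adjusted p = 0.529). All KO libraries were above all WT libraries in CPM, and with TMM scaling WT2 overlapped with KO1. Adsl, which acts both before and after IMP, Gmps, which makes GMP, and Adss, which commits IMP to AMP, had log2 fold changes of -0.18 ± 0.10, -0.09 ± 0.08 and -0.13 ± 0.09.

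Impdh1 was the most abundant purine gene in CPM and it had the widest range of all 35. It lay at 631.4, 509.8 and 658.2 CPM in WT and at 830.0, 349.1 and 694.7 CPM in KO. KO1 was highest and KO2 lowest, 2.38-fold apart, and WT2 was the lowest WT library (0.03 ± 0.30, with a 95% interval of -0.72 to 0.77). Impdh2, the least abundant of the step, lay at 59.27, 65.69 and 63.04 CPM in WT and at 58.06, 52.89 and 63.38 CPM in KO (-0.13 ± 0.08). Its range was narrow, and the groups overlapped through KO3.

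**Figure D3:**
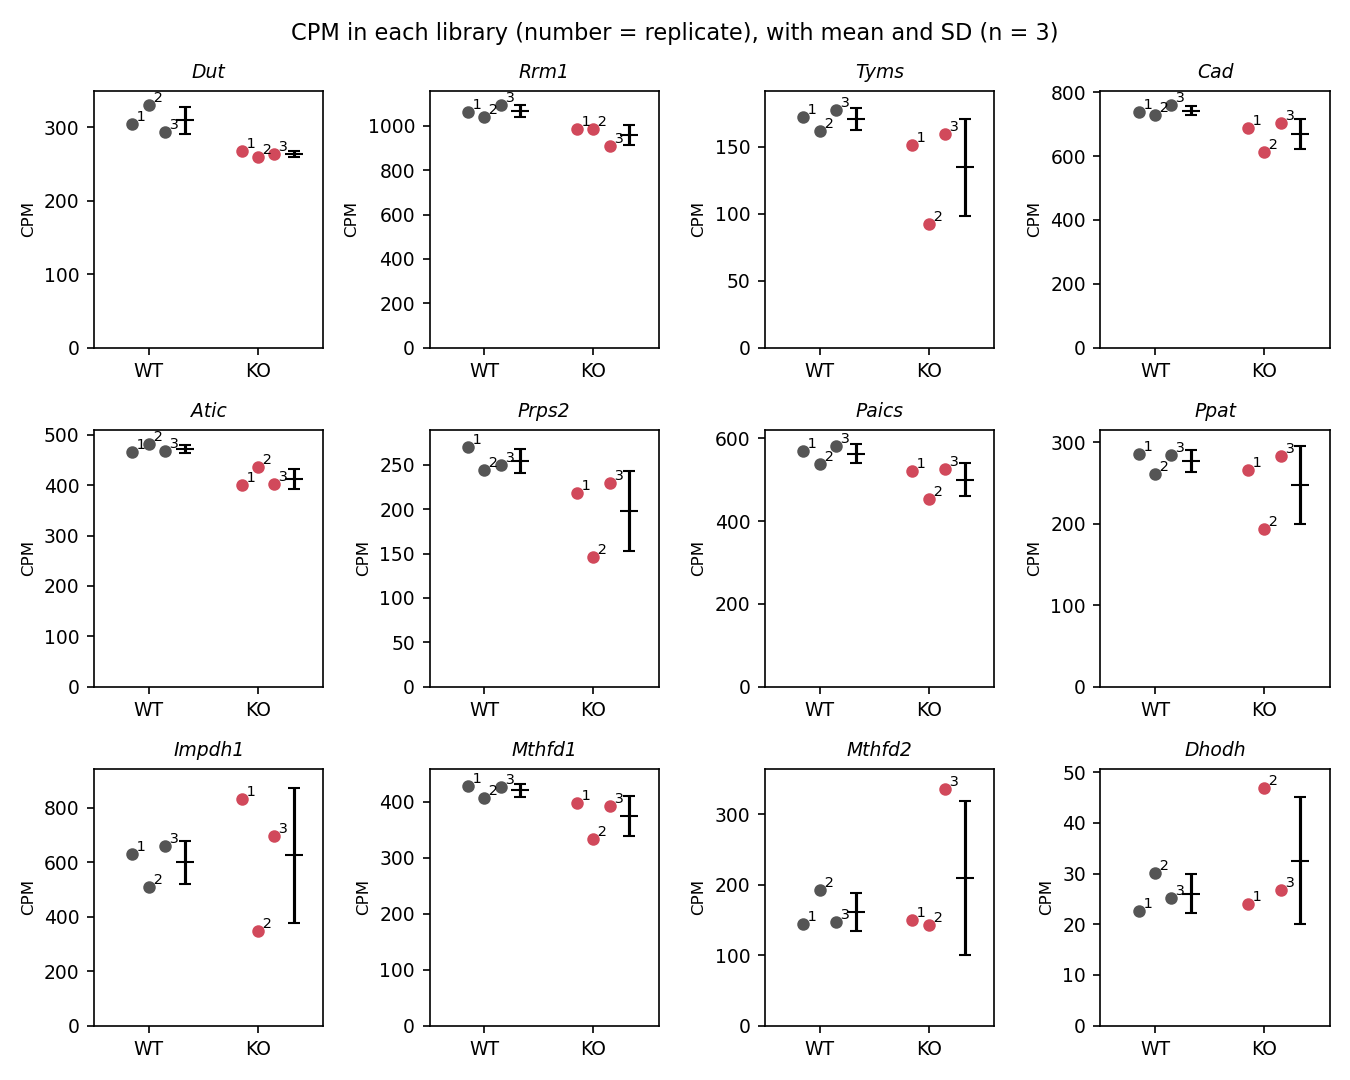
CPM in each library for 12 of the genes, numbered by replicate, WT in grey and KO in red, with the mean and SD of each group (n = 3) in black and axes from 0. The KO points of Dut, Rrm1, Cad, Atic, Paics and Mthfd1 sit just below the WT points, while KO2 stands apart for Tyms, Prps2, Ppat, Impdh1 and Dhodh and KO3 for Mthfd2.

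All 5 genes of purine salvage and the nucleotide kinases had negative log2 fold changes, with a median of -0.15, and 0 passed edgeR or DESeq2. In KO1 and KO3 every 1 of the 5 lay below all WT libraries, where 16.0% of genes did, and the median without KO2 was -0.24. Guk1, the GMP kinase, lay at 61.89, 64.27 and 57.16 CPM in WT and at 54.14, 51.84 and 54.62 CPM in KO, with no overlap (-0.21 ± 0.08, edgeR unadjusted p = 0.0342, adjusted p = 0.508). Hprt and Aprt, which return free purine bases to nucleotides, had log2 fold changes of -0.12 ± 0.09 and -0.13 ± 0.15. KO2 was the KO library that overlapped with WT in both, at 246.1 CPM for Hprt and 150.7 CPM for Aprt.

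Nme1 and Nme2 encode kinases that raise nucleoside diphosphates to triphosphates. Nme2 lay at 180.4, 209.3 and 181.2 CPM in WT and at 165.3, 155.3 and 167.4 CPM in KO, without overlap (-0.25 ± 0.08, edgeR unadjusted p = 0.0229, adjusted p = 0.495). Nme1 lay at 331.3, 392.3 and 330.0 CPM in WT and at 307.7, 350.4 and 301.9 CPM in KO (-0.15 ± 0.12), where KO2 was within the WT range. Both share exons with the fused gene Gm20390, by 48.9% of the exon bases of Nme2 and 12.5% of those of Nme1. Gm20390 itself held between 311 and 407 CPM, so how the reads of this locus were split is uncertain.

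Of the folate genes 3 of 5 had negative and 2 positive log2 fold changes, with a median of -0.07, and 0 passed edgeR or DESeq2. The median ran from -0.14 (without KO3) to -0.01 (without WT2) when 1 library was left out. Mthfd1, the cytosolic enzyme that loads formate onto folate, lay at 428.6, 407.4 and 426.3 CPM in WT and at 397.5, 333.7 and 392.8 CPM in KO. The groups did not overlap, with KO2 lowest (-0.19 ± 0.07, edgeR unadjusted p = 0.0292, adjusted p = 0.499). Shmt1 lay at 289.5 to 300.3 CPM in WT and at 300.3, 223.7 and 296.7 CPM in KO, only KO2 being apart (-0.14 ± 0.10).

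Of the 3 mitochondrial enzymes, Mthfd2 and Shmt2 were highest in KO3. Mthfd2, the mitochondrial dehydrogenase and cyclohydrolase, lay at 145.1, 192.0 and 147.0 CPM in WT and at 150.6, 142.3 and 336.1 CPM in KO. The KO3 value stood alone, and the log2 fold change of 0.34 ± 0.35 was -0.14 without KO3. Shmt2 lay at 719.7, 877.8 and 752.6 CPM in WT and at 741.5, 876.4 and 977.3 CPM in KO, also highest in KO3 (0.12 ± 0.13). Mthfd1l, which releases formate, did not follow, with 292.6 CPM in KO3 inside the WT range of 284.2 to 326.9 CPM (-0.07 ± 0.10).

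**Figure D4:**
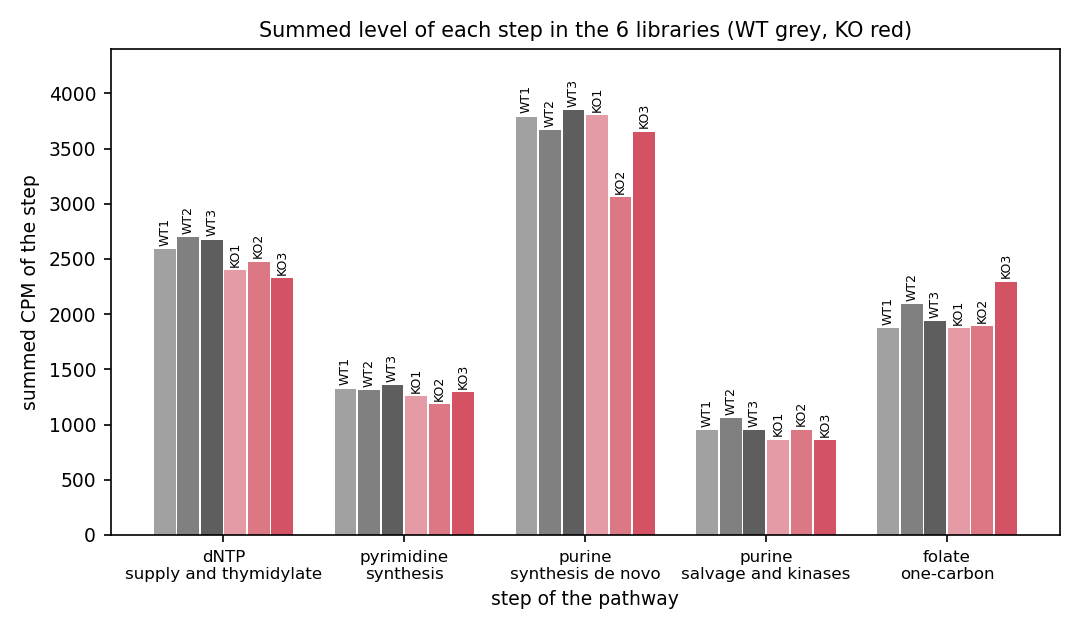
Summed CPM of the genes of each step in the 6 libraries, WT in grey and KO in red, axis from 0. The KO bars are below all WT bars for dNTP supply and pyrimidine synthesis, KO2 is the shortest bar of purine synthesis de novo at 3058.8, and KO3 is the tallest of the folate step at 2295.6. Abundant genes weigh most in a sum. Cad makes up 742.4 of the WT mean of 1332.0 CPM for pyrimidine synthesis, where 3 of 6 genes had positive log2 fold changes.

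How far single lines departed from the rest was then read gene by gene, as the log2 ratio of a library to the median of the other 5. The counts below are of the 35 genes only, without the share of all tested genes past the same limit. KO2 stood apart across the whole table, so these counts cannot be called particular to the enzymes. In KO2 5 genes lay beyond 0.5 in size: Dhodh at 0.89, Prps2 at -0.74, Impdh1 at -0.91, Tyms at -0.81 and Ppat at -0.55. KO3 had 1 such gene, Mthfd2 at 1.19, and WT1, WT2, WT3 and KO1 had 0. KO2 was the lowest library for 18 of the 35 genes and WT2 the highest for 14. How often this held over all tested genes was not counted. Genes within 5 Mb of these 5 on either side did not share the shift in KO2, with medians of -0.08 around Dhodh, 0.05 around Prps2, -0.11 around Impdh1 and -0.09 around both Tyms and Ppat. The coefficient of variation of the 35 genes had a median of 5.29% in WT and 8.28% in KO. It was above 20% for 0 of them in WT and 6 in KO, a group that includes KO2. The same was not taken over all genes, so a wider spread in KO is not shown to belong to these enzymes.

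Prps1, Prps2, Hprt and Ctps2 lie on the X chromosome, and KO2 had almost no Xist, the RNA of X inactivation (2.08 CPM, against 716.0 to 1697.1 CPM in the other libraries). In KO2 the log2 ratio was -0.01 for Prps1, 0.05 for Hprt and 0.13 for Ctps2, beside -0.74 for Prps2. The 260 other X-linked genes of at least 5 CPM had a median of -0.09 in KO2, and autosomal genes one of -0.06.

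**Figure D5:**
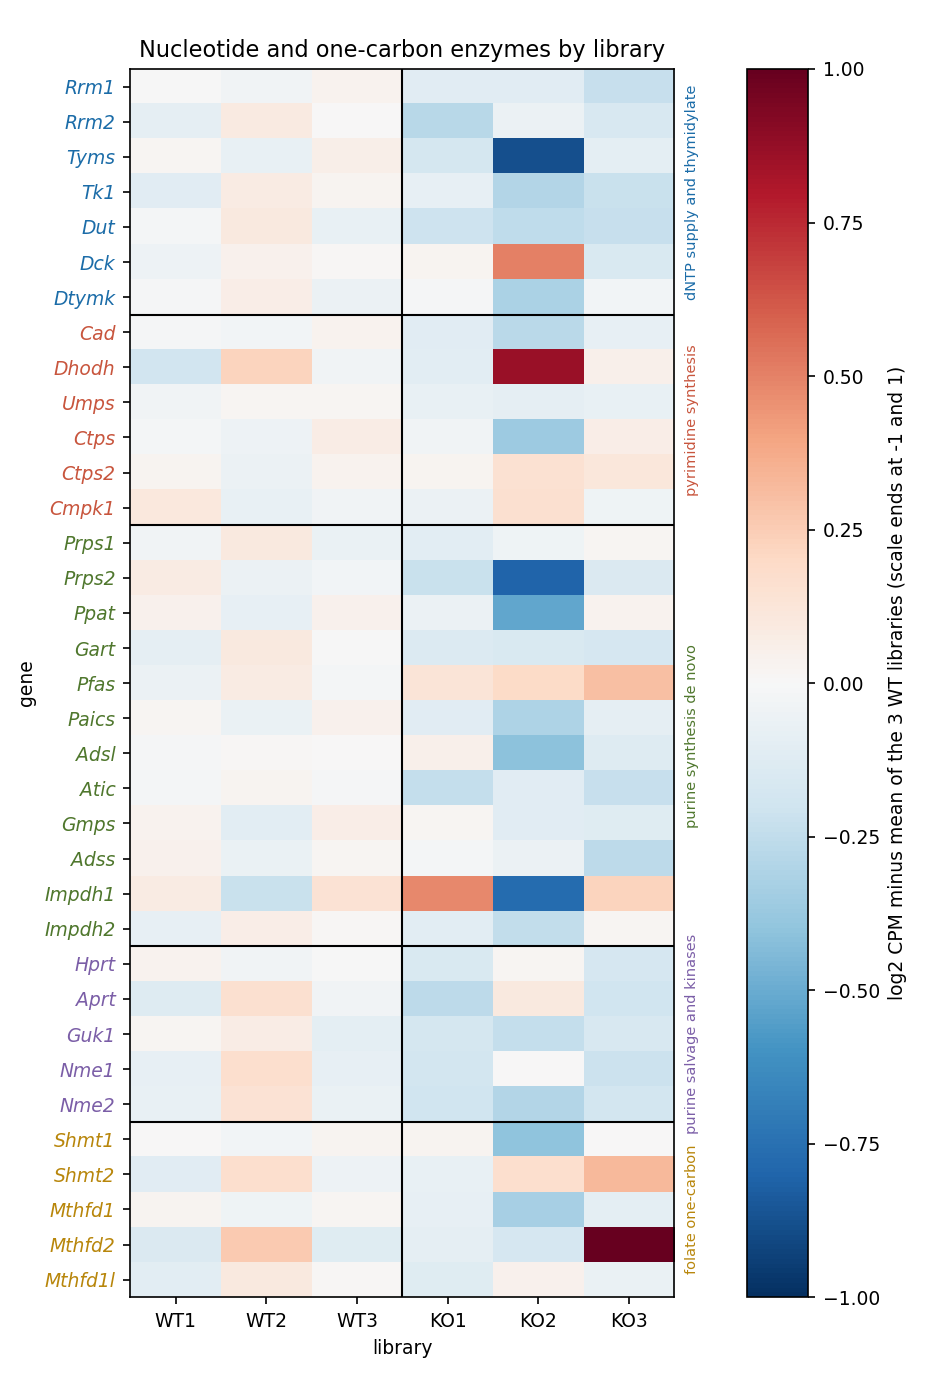
Log2 CPM of each gene in each library minus the mean of the 3 WT libraries (colour, from -1 in blue to 1 in red, values beyond shown at the end colours), genes grouped by step. The KO columns are mostly pale blue, and the strongest colours are those of KO2 (Tyms, Dhodh, Prps2, Impdh1) and of Mthfd2 in KO3.

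With KO2 left out, KO1 and KO3 lay below all WT libraries in 16 of the 35 genes and above them in 2, where this held for 16.0% and 26.4% of the genes tested. DESeq2 then called 7 of the 35, all lower in KO, where it called 5.95% of its genes, 3.68% lower and 2.27% higher. Atic had the smallest adjusted p (log2 fold change -0.28 ± 0.05, DESeq2 adjusted p = 5.07e-05 without KO2), followed by Hprt (-0.21 ± 0.06, DESeq2 adjusted p = 0.0151). Rrm1, Rrm2, Dut, Cad and Prps2 followed, with DESeq2 adjusted p from 0.0235 to 0.0449. edgeR on the same 5 libraries called 0 of the 35 and 0 of all genes (percent called 0.0), with 15 of the 35 at an unadjusted p under 0.05, where 18.8% of all genes were. These calls hold for the other 5 lines only.

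Further genes of the same pathways were counted from 3 lists of 65 symbols. Of all tested genes 47.2% had negative log2 fold changes. Of the 17 tested rows for other dNTP and pyrimidine genes, 6 had negative and 11 positive log2 fold changes (median 0.03). Without KO2 9 were negative and the median was -0.02. DESeq2 called 3 of the 16 to which it gave an adjusted p, where it called 1.94% of all genes, and edgeR called 0. Uck2, a uridine and cytidine kinase, has 2 rows: the larger lay at 223, 216 and 226 CPM in WT and at 197, 185 and 182 CPM in KO (log2 fold change -0.25 ± 0.07, DESeq2 adjusted p = 0.0251). Uckl1, a uridine kinase related to it, lay at 14.9, 13.8 and 14.3 CPM in WT and at 19.8, 19.0 and 21.8 CPM in KO (0.48 ± 0.13, DESeq2 adjusted p = 0.0208). Rrm2b, the reductase subunit induced by p53, was the third, at 0.44 ± 0.13 (DESeq2 adjusted p = 0.0473). In these 3 rows the groups did not overlap, and the edgeR adjusted p was 0.479 for each. The smaller row of Uck2 was not called (-0.17 ± 0.14, DESeq2 adjusted p = 0.72). It lay at 14.9, 15.6 and 14.7 CPM in WT and at 13.9, 13.2 and 13.4 CPM in KO.

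Other purine genes were lower in 16 of 20 tested, with a median log2 fold change of -0.20, and 0 passed edgeR or DESeq2. Without KO2 17 were lower and the median was -0.11. The smallest p values were those of Nme6, a further nucleoside diphosphate kinase (-0.28 ± 0.11, edgeR adjusted p = 0.528), and of Itpa, which clears inosine triphosphate (-0.20 ± 0.10, edgeR adjusted p = 0.571). Other folate and serine genes were lower in 12 of 20, with a median of -0.06, and 0 passed either test. This direction rested on KO2, without which 7 were lower and the median was 0.04. Gcsh, of the glycine cleavage system, had a log2 fold change of -0.24 ± 0.10 (edgeR adjusted p = 0.534).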

How the data were processed

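RNA of 6 mouse cell lines was sequenced after TruSeq library preparation, per the labels' protocols. The authors deposited raw counts per gene symbol, 1 column per library and not normalized. Trim Galore, STAR and DESeq2 with GRCm38 are named in the submitters' processing notes, while for versions, counting program, annotation and strandedness the answer is "not given in the sources used here". Columns were matched to samples by their labels. The members, lists and alternatives were chosen with earlier results of these data known.

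Testing was done with edgeR 4.0.16 (R 4.3.3): TMM scaling, filterByExpr, a robust quasi-likelihood F test over all 6 libraries without a block, two-sided, with Benjamini-Hochberg adjustment over 10896 genes left by the filter and a threshold of 0.05. SE values were derived from the F statistic. CPM used library totals. Alternatives were DESeq2 1.42.0, limma-voom (limma 3.58.1), other scalings and filters, the replicate number as a block and left-out libraries. The code of the tests was checked on simulated data. That check does not show that changes as small as those here would be found, or that every DESeq2 call holds. Values in every library are given for members with an unadjusted p under 0.05, groups that do not overlap, or the highest or lowest mean CPM of a step. Rrm2, Dck, Ppat, Prps1 and Shmt1 were added after their values were seen. Of the other genes up to 2 per list were to be named by smallest p, and Rrm2b was added as the third DESeq2 call. Some items under this rule are not reported here. Promoter stretches were shown for genes with 1 RefSeq window, free of GENCODE vM21 exons and of the gene's own RefSeq span. Near-identical transcripts (at least 95% over 200 bases) were sought with blastn 2.17.0.

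WT and KO lines share replicate numbers. Across genes the deviations from the group means correlated at 0.326, 0.643 and 0.457 within numbers 1, 2 and 3, all above the criterion of 0.1, so the numbers were treated as a pairing in the fit with a block. Unmatched lines did as well for numbers 1 and 3 (0.406 for WT1 with KO3 and 0.361 for WT3 with KO1), so the data set only WT2 and KO2 apart by number, and the labels name no shared culture.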

Additional observations from a re-analysis of the deposited data

How the results depend on the processing

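Over 16 alternatives 30 of the 35 enzymes kept the sign of their log2 fold change. The exceptions were near 0 or rested on 1 library: Dck was -0.08 without WT2 and KO2 and -0.11 with DESeq2 without KO2, Dhodh was -0.08 with DESeq2 without KO2, and Cmpk1 was -0.0022 with limma-voom, -0.13 without WT2 and KO2 and -0.1 with DESeq2 without KO2. Impdh1 was -0.05 with limma-voom. Leaving out 1 library at a time gave -0.1 to 0.29 for Dck, -0.08 to 0.5 for Dhodh, -0.1 to 0.06 for Cmpk1, -0.22 to 0.3 for Impdh1 and -0.14 to 0.55 for Mthfd2. The median over all 35 was -0.16 to -0.13 without 1 library and -0.11 with library totals alone. That of purine synthesis de novo was -0.17 to -0.09 without 1 library, and -0.09 with DESeq2 without KO2. DESeq2 called 218 genes of the whole table and 3 of the other pathway genes where edgeR called 0, and without KO2 it called 684, 4 and 7 of the 35. limma-voom called 0 genes. The causes were not tested.

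In the paired fit with the replicate number as a block 0 genes of the table and 0 of the 35 passed, with 9 lower and 0 higher at an unadjusted p under 0.05. The median stayed at -0.14, Cmpk1 was -0.0003 and Impdh1 was -0.04, and the block changed no call.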

Other observations

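Some further genes of these pathways, singled out after their values were seen, differed strongly between lines without separating the groups. Gldc, the decarboxylase of the glycine cleavage system, lay at 341.0, 99.8 and 211.0 CPM in WT and at 14.4, 1.24 and 267.0 CPM in KO. Its range thus spanned high and near-absent levels among the KO lines. Adk, the adenosine kinase, was lowest in KO2 at 53.5 CPM. Psph, the last enzyme of serine synthesis, was highest in KO3 at 91.3 CPM, as Mthfd2 and Shmt2 were. No explanation of these differences was tested.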
